A study of Mus musculus with 24 samples.

Results

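The transforming growth factor beta (TGF-beta) pathway was described in mouse gastrocnemius muscle through 9 genes, chosen by name and matched to the gene identifiers of the count files: the ligands Tgfb1, Tgfb2 and Tgfb3, the receptors Tgfbr1, Tgfbr2 and Tgfbr3, the transducer Smad3, the inhibitor Smad7 and the latency protein Ltbp1. They are 9 of 55385 counted genes, and all 9 were among the 17803 genes with enough reads to be tested. RNA was sequenced from the gastrocnemius, a calf muscle, of female C57BL/6J mice, with 1 library per mouse and 4 libraries in each of 6 groups. Young GFP (3 to 6 months), old GFP (21 to 24 months) and oldest-old GFP (27 to 29 months) mice carried an adeno-associated virus (AAV) encoding green fluorescent protein, and the AAV-Kl mice, in an old and an oldest-old group of those same age ranges, carried one encoding Klotho. Both vectors were AAV8 with the liver-specific LP1 promoter and were given by tail vein, 3e+08 vector genomes per mouse, 14 days before collection. A further group is labelled young Sham, and neither what its mice received nor their exact age is given in the sources used here. Between 36415886 and 59733985 reads per library fell on genes.

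TGF-beta ligands are secreted in a latent complex that latent TGF-beta binding proteins tether to the matrix. Once released, a ligand binds the type II receptor, which recruits the type I receptor, and the pair phosphorylates SMAD2 and SMAD3, which enter the nucleus with SMAD4 and regulate transcription. In skeletal muscle the pathway is known for restraining myogenic differentiation and promoting fibrosis, and Klotho, a protein released into the circulation, is known to oppose it.

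Some libraries stood apart from their groups. The muscle fibre genes Acta1, Ckm, Mylpf, Tnnt3 and Myh4 were abundant in all 24 libraries, with a summed level of 94128 to 147880 CPM (reads of a gene per 1000000 reads of the library, after TMM scaling). The 5 liver genes Alb, Apoa1, Apoa2, Ttr and Serpina1a, of which Alb was the most abundant, summed to 793 CPM in old GFP library 1 and 72.4 in old GFP library 4, against 3.31 and 1.02 in old GFP libraries 2 and 3. In old AAV-Kl library 4 the sum was 123 CPM. Ttr had a mean of 0 CPM in oldest-old GFP. The 5 keratinocyte genes Krt5, Krt10, Krt14, Lor and Dsp, led by Krt10, summed to 76.3 CPM in young GFP library 1 and 274 in library 3, against 1.37 and 0.942 in libraries 2 and 4. Young Sham library 4 (91.5 CPM) and old AAV-Kl library 2 (46.9 CPM) were also high. Oldest-old GFP library 4 was the lowest of its group in fibre genes (94128 CPM), in 5 fibroblast genes led by Dpt (65.2 CPM, against 134 to 150 in the others) and in 5 tendon genes led by Fmod (96.1 CPM, against 193 to 204). Oldest-old AAV-Kl library 3 was likewise low in fibroblast (61.4 CPM) and tendon genes (73.4 CPM). Adipocyte genes summed to 26.4, 270.4, 145 and 26.2 CPM in young GFP libraries 1 to 4, and to 431 in old AAV-Kl library 2 and 317 in oldest-old AAV-Kl library 2, each the highest of its group. T cell genes summed to 21.9 CPM in young GFP library 3, against at most 1.76 in the other 3, and to 3.16, 12.7, 17.1 and 14.02 in young Sham libraries 1 to 4. Macrophage genes reached 109.6 CPM in oldest-old AAV-Kl library 2. Results that use the old, young or oldest-old GFP group are also given without libraries 1 and 4, 1 and 3, or 1 and 4 of that group where the call changes. The last of these alternatives was chosen after seeing the data, from a set of marker genes whose values are not given here. Each leaves 2 libraries in the group. The part of these tissues in the results was not tested.

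**Figure D1:**
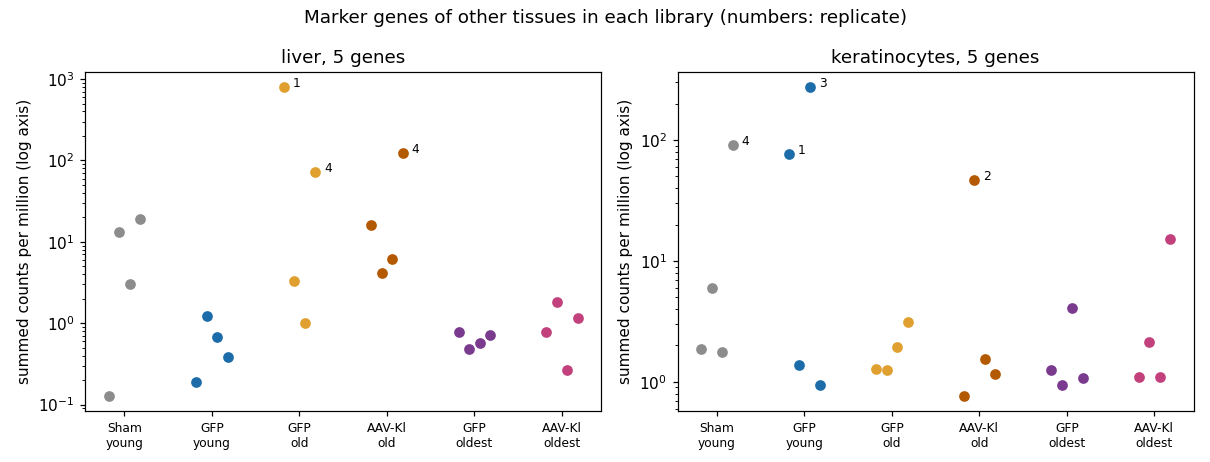
Summed level of 5 liver genes and 5 keratinocyte genes in each of 24 libraries, on a log axis in CPM, with the replicate number beside sums over 40 CPM. Old GFP libraries 1 and 4 stand above the other old GFP libraries in liver genes, and young GFP libraries 1 and 3 stand above the other young GFP libraries in keratinocyte genes.

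Kl, the gene that encodes Klotho, was barely detected, with 0 to 33 reads per library. Its mean level was 0.459 ± 0.210 CPM (SD, n = 4) in young Sham, 0.371 ± 0.0455 in young GFP, 0.175 ± 0.118 in old GFP and 0.140 ± 0.0508 in old AAV-Kl. It was 0.0889 ± 0.0597 CPM in oldest-old GFP and 0.113 ± 0.0637 in oldest-old AAV-Kl. Between oldest-old and young GFP, Kl was lower with age (log2 fold change -2.09, SE 0.61, edgeR adjusted p = 0.0253), and the 4 libraries of each group did not overlap. The call was lost without oldest-old GFP library 1 (adjusted p = 0.0789), oldest-old GFP library 4 (0.0780), young GFP library 2 (0.0513) or young GFP library 4 (0.0571), without young GFP libraries 1 and 3 together (0.0821), and without oldest-old GFP libraries 1 and 4 together (0.293). Over 17 alternatives the adjusted p ran from 0.00460 to 0.293. Because the vector is expressed in liver, muscle Kl reads do not check the AAV-Kl labels.

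Per kilobase of exon and over all libraries, Smad3 was the most abundant member at 22.3 ± 6.17 RPKM (CPM per 1000 bases of exon, SD, n = 24), followed by Tgfb3 at 12.6 ± 1.66. In oldest-old GFP the 2 overlapped, with 15.3, 13.4, 20.3 and 10.85 RPKM of Smad3 in libraries 1 to 4 beside 13.3, 13.6, 14.6 and 10.6 of Tgfb3. Tgfbr1 (6.20 ± 0.765 RPKM), Tgfb2 (5.82 ± 1.32) and Tgfbr2 (5.80 ± 0.962) were next and lay within their spread of each other. Tgfbr3 was at 3.64 ± 0.530 RPKM, Tgfb1 at 2.11 ± 0.575, Smad7 at 1.87 ± 0.366 and Ltbp1 at 1.28 ± 0.207, and Tgfb1 and Smad7 did not differ beyond their spread. Across groups, Smad3 varied most, its highest group mean being 2.24 times its lowest, while the same ratio lay between 1.24 for Tgfbr3 and 1.48 for Tgfbr2 among the other 8 members.

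**Figure D2:**
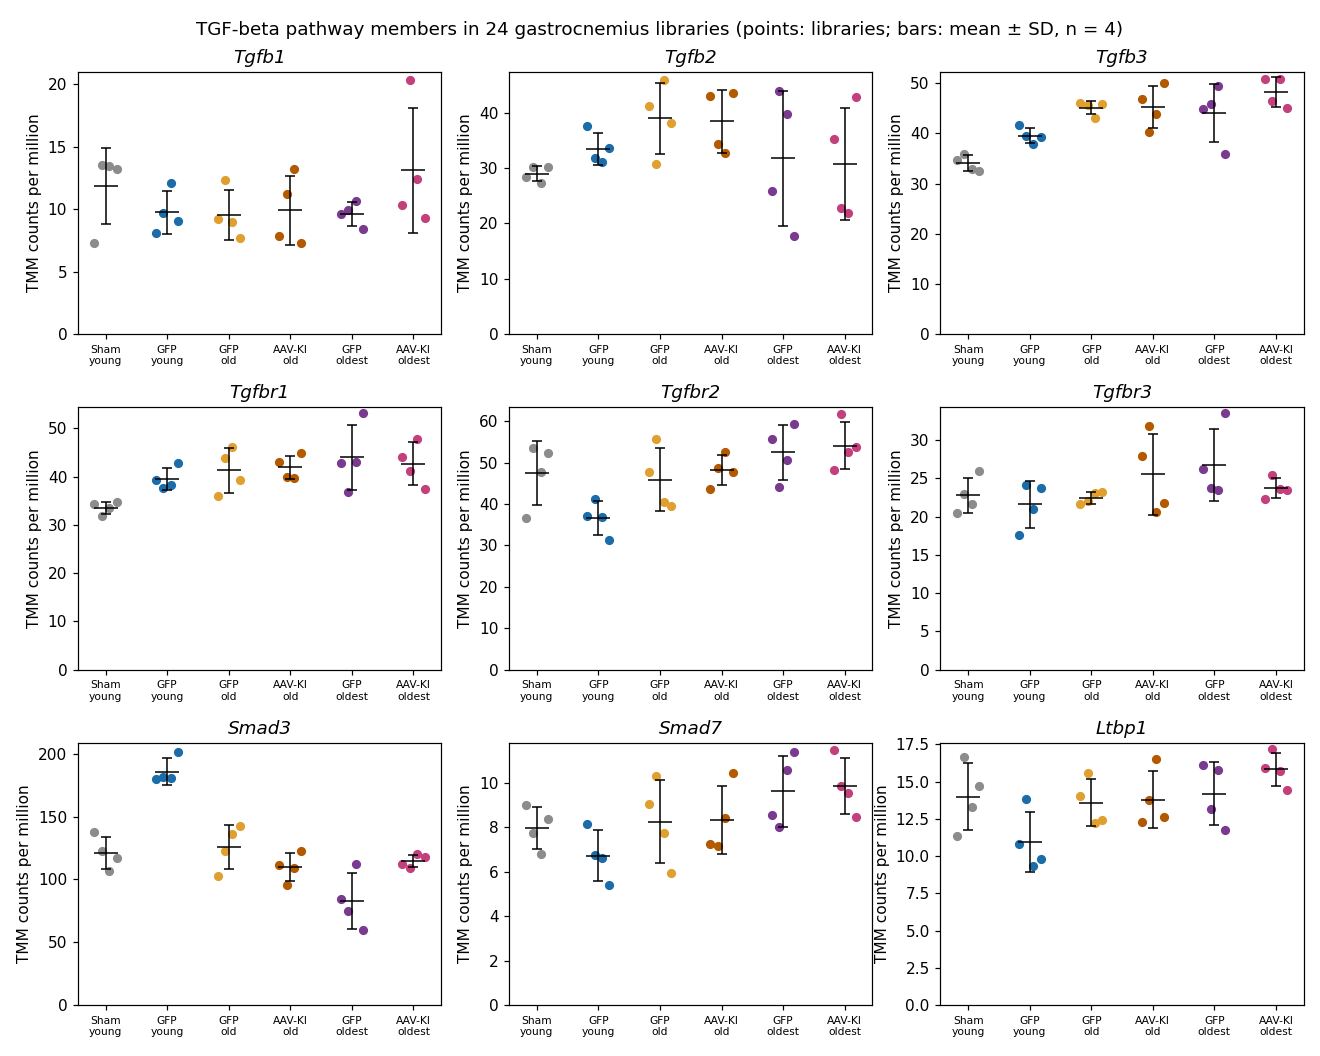
TMM-scaled CPM of the 9 members in each library (points), with the mean and SD of each group of 4 (bars), by group. For Smad3, the 4 young GFP libraries lie above every other library.

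**Figure D3:**
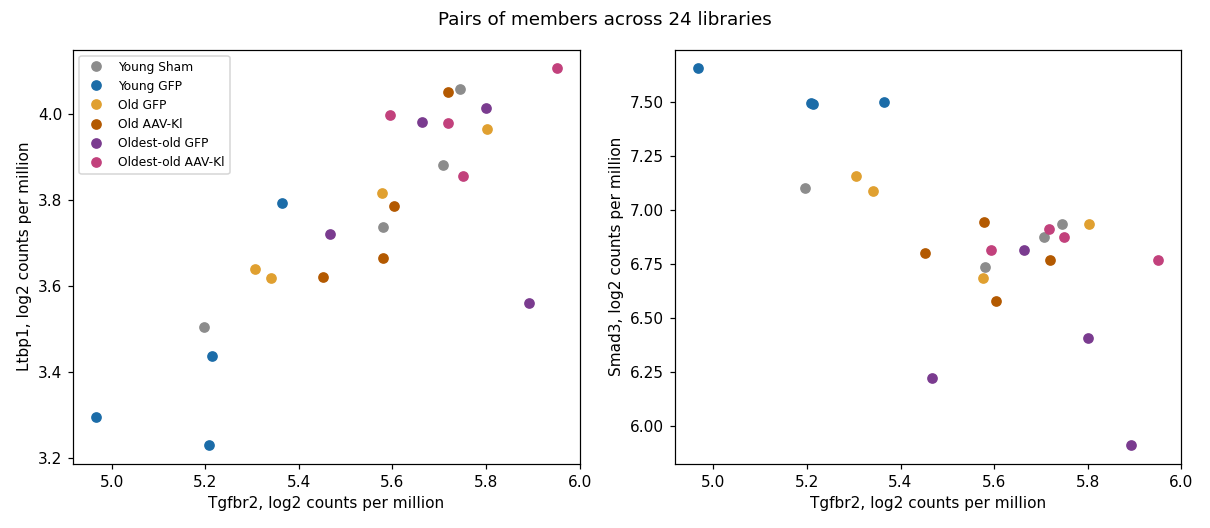
log2 CPM of Ltbp1 and of Smad3 against Tgfbr2 in 24 libraries, coloured by group. Ltbp1 rises with Tgfbr2 apart from 1 oldest-old GFP library, and Smad3 falls.

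Across the 24 libraries Ltbp1 and Tgfbr2 had the highest correlation among members (Pearson r = 0.807, Spearman rho = 0.759), and 0.645 after group means were removed. Tgfbr2 and Smad3 had r = -0.708 (rho = -0.603), and -0.416 after group means were removed. With group means removed the highest correlation was instead that of Tgfb3 and Smad3 (0.660, from -0.0967 without removal) and the lowest that of Tgfb3 and Tgfbr3 (-0.654, from -0.0865). These are 4 of 36 pairs and are descriptions over libraries that share groups and scaling. Over the same libraries, the genes most like Smad3 were Fahd1 (r = 0.858), Suclg1 (0.849) and Uqcrb (0.847). Those most like Ltbp1 were Emilin1 (0.909), Emcn (0.897) and Tpst1 (0.885), and those most like Tgfbr2 were Klhl5 (0.887), Serinc5 (0.867) and Nt5e (0.865). For Smad7 they were Klf10 (0.888), Rhbdf2 (0.881) and Smad1 (0.871). For Tgfb1 they were Srgn (0.901), Cfl1 (0.891) and Msn (0.873), for Tgfb2 Adi1 (0.875), Msrb3 (0.875) and Pde7b (0.874), and for Tgfb3 Bex1 (0.910), Fam241b (0.886) and Fgf13 (0.879). For Tgfbr1 they were Arfgef2 (0.899), 2310057M21Rik (0.897) and Plekhm2 (0.890), and for Tgfbr3 Xdh (0.849), Galnt15 (0.839) and Fmo2 (0.835). After group means were removed, r fell to 0.555 for Fam241b and 0.536 for Fgf13 with Tgfb3, and to 0.568 for Uqcrb and 0.637 for Suclg1 with Smad3. It lay between 0.696 (Serinc5) and 0.907 (Srgn) for the other genes named here.

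Tgfbr2 and Ltbp1, the pair of members with the highest correlation before group means were removed, and Smad3, which varied against Tgfbr2, are shown by their promoters (RefSeq, build GRCm38.p6, from 250 bases before to 50 after the start). Capitals mark CAGAC, a short element that SMAD proteins are known to bind, on either strand (CAGAC or GTCTG). It occurs in 49.6% of 32851 promoters of that length, so a match is a description only. The first is minus-strand chr9:116175314-116175613, the second plus-strand chr17:75005279-75005578 and the third minus-strand chr9:63757945-63758244. The element was found 1 time in Tgfbr2, 1 time in Ltbp1 and 0 times in the Smad3 window. Ltbp1 has a second promoter, plus-strand chr17:75178531-75178830, which is not shown and holds the element 2 times.
Tgfbr2: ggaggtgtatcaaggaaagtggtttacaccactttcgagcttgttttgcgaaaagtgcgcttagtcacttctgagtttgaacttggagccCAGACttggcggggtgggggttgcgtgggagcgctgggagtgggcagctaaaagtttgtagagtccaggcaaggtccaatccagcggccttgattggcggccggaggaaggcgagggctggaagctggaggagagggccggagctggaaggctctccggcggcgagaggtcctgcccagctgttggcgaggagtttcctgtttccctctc
Ltbp1: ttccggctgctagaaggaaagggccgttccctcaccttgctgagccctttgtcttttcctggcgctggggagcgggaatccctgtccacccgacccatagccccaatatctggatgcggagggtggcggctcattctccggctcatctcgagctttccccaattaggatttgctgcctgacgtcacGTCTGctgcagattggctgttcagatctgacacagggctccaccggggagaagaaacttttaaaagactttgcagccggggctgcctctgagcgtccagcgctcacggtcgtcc
Smad3: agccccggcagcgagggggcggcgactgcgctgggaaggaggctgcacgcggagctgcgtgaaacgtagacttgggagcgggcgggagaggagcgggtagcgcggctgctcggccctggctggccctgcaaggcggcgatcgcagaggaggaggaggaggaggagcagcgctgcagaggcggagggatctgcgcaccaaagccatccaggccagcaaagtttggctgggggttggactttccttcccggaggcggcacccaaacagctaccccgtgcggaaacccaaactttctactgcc

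Smad3, the receptor-activated SMAD (GRCm38 chr9:63646767-63757994, minus strand), was the member with the clearest differences between ages. In young GFP its level was 180.0, 181, 180.5 and 202 CPM in libraries 1 to 4, in old GFP 103, 122, 136 and 143, and in oldest-old GFP 84.7, 74.5, 113 and 60.1. All young GFP libraries lay above all old GFP and all oldest-old GFP libraries, while old and oldest-old GFP overlapped. Smad3 was lower in old GFP than in young GFP (log2 fold change -0.56, SE 0.14, adjusted p = 0.0201, exact two-sided permutation p = 0.0286, the smallest that 4 against 4 libraries allow). The difference of oldest-old from young GFP was larger (log2 fold change -1.16, SE 0.14, adjusted p = 4.52e-05, exact permutation p = 0.0286). Between oldest-old and old GFP the log2 fold change was -0.60 (SE 0.14, adjusted p = 0.150, exact permutation p = 0.0571), which does not pass. It passed without oldest-old GFP library 3 (-0.79, adjusted p = 0.0208) and in DESeq2 (-0.61, adjusted p = 0.00871), and the adjusted p ran from 0.00871 to 0.809 over 17 alternatives. The old against young GFP call was lost without old GFP library 1 (adjusted p = 0.0817), old GFP library 2 (0.0554) or young GFP library 4 (0.0660). It was also lost without old GFP libraries 1 and 4 together (log2 fold change -0.54, adjusted p = 0.127) and without young GFP libraries 1 and 3 together (-0.63, adjusted p = 0.0993). Over its 18 alternatives, 12 kept the call, with an adjusted p from 0.00257 to 0.852. The oldest-old against young GFP call was made in all 18 of its alternatives, with an adjusted p of at most 0.0140.

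The young comparator matters for this gene. Young Sham libraries 1 to 4 had 137, 122, 107 and 117 CPM of Smad3. All 4 lie inside the old GFP range of 103 to 143 CPM and below every young GFP library. Smad3 was higher in young GFP than in young Sham (log2 fold change 0.62, SE 0.14, adjusted p = 0.0417, exact permutation p = 0.0286). That call was lost without young GFP library 1 (adjusted p = 0.0736), 2 (0.0857) or 4 (0.177), without young Sham library 2 (0.147), 3 (0.126) or 4 (0.0926), without young GFP libraries 1 and 3 together (0.103), and with a replicate block (log2 fold change 0.62, adjusted p = 0.0647), over a range of 0.00161 to 0.177 in 15 alternatives. With young Sham in place of young GFP, the log2 fold change of old GFP was 0.06 (SE 0.14, adjusted p = 0.852), opposite in sign. This comparison was added after the values were seen, treatment also differs in it, and the exact age of the young mice may differ. The log2 fold change of oldest-old GFP against young Sham was -0.54 (SE 0.14, adjusted p = 0.0140), with libraries that overlapped (exact permutation p = 0.0571). The lower Smad3 of old GFP therefore rests on the young GFP group, and that of oldest-old GFP was seen against either young group. The muscle fibre sum was 136530 ± 8537 CPM in young GFP, 129020 ± 8467 in old GFP, 114250 ± 14829 in oldest-old GFP and 123880 ± 14470 in young Sham, and its part in the Smad3 values was not tested. In bulk muscle, fewer cells of a type and less RNA per cell cannot be told apart.

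Counted over the 9 members, 1 was called at an adjusted p below 0.05 between old and young GFP (Smad3, lower), against 4.7% of all tested genes. At an unadjusted p below 0.05 the count was 4, against 19.1% of all tested genes. Between oldest-old and young GFP 3 members were called, against 14.9% of tested genes, and 5 at an unadjusted p below 0.05, against 29.8%. The median log2 fold change of the members was 0.19 for old and 0.16 for oldest-old GFP against young GFP, beside 0.00 and 0.03 over all tested genes. These 2 comparisons share the young GFP libraries. Against young Sham the member log2 fold changes of old GFP ran from -0.32 (Tgfb1) to 0.43 (Tgfb2). There Tgfbr2, Tgfbr3 and Ltbp1 were also negative, and the other members were positive. Those of oldest-old GFP against young Sham ran from -0.54 (Smad3) to 0.39 (Tgfbr1). At an adjusted p below 0.05 DESeq2 called 1 and 3 members in the 2 comparisons with young GFP, while the shares given above are those of edgeR alone. Between oldest-old and old GFP edgeR called 0 members, against 0.00562% of tested genes, with 1 at an unadjusted p below 0.05 against 12%. DESeq2 called 1 member, which was Smad3, and 120 genes over all tested genes.

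**Figure D4:**
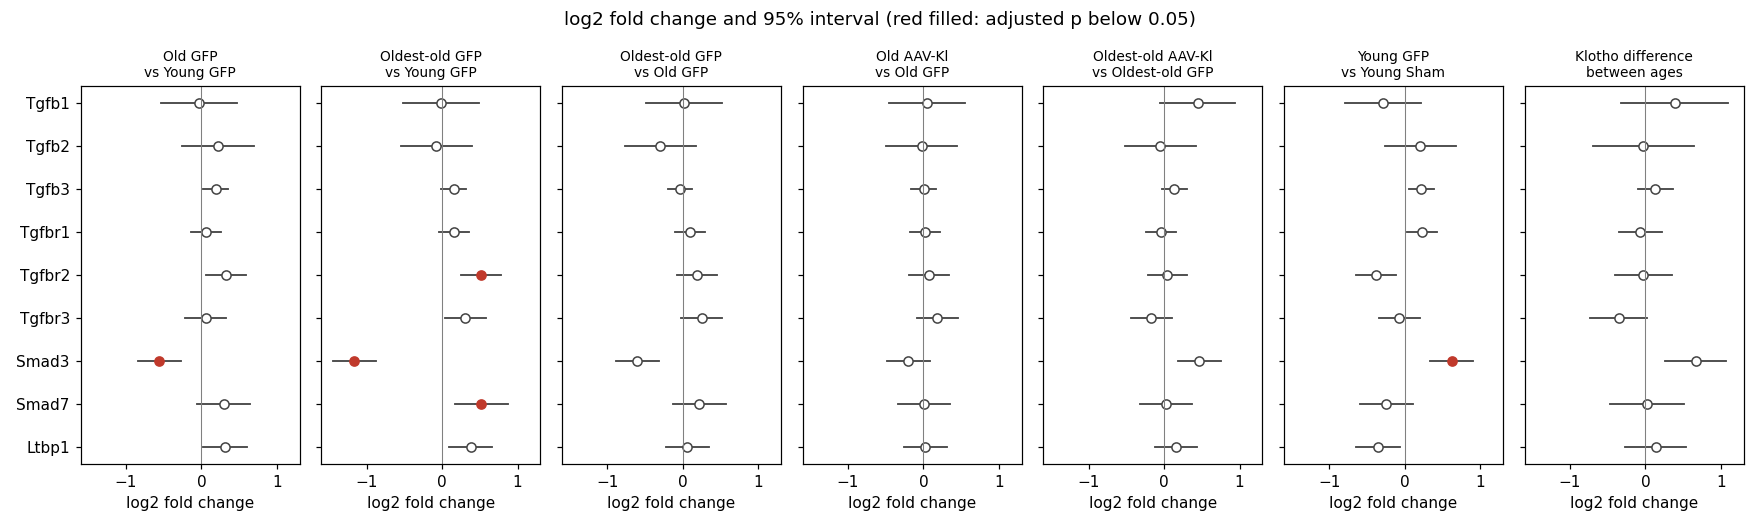
log2 fold change of each member with an approximate 95% interval in 7 comparisons, the first-named group minus the second (the last panel is the oldest-old AAV-Kl effect minus the old AAV-Kl effect). Red filled points have an adjusted p below 0.05, and there are none in the panels of AAV-Kl against GFP.

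Among the ligands, Tgfb3 (chr12:86056745-86079041, minus strand) was higher in every old GFP library than in every young GFP library. Its values were 41.6, 39.5, 37.9 and 39.3 CPM in young GFP and 45.9, 45.7, 43.1 and 45.8 in old GFP. The groups did not overlap (exact permutation p = 0.0286), but the edgeR adjusted p was 0.176 (log2 fold change 0.19, SE 0.08). The share of all tested genes whose libraries did not overlap between these groups was not counted. For Tgfb3, other fits gave other outcomes. Tgfb3 passed with only the compared groups fitted (0.18, adjusted p = 0.0461), and over 18 alternatives, the young Sham comparison included, the adjusted p ran from 0.00469 to 0.567. Young Sham was lower again, at 34.0 ± 1.60 CPM, and against it Tgfb3 was higher in old GFP (0.41, SE 0.08, adjusted p = 0.00469) and in oldest-old GFP (0.37, SE 0.08, adjusted p = 0.00469). About 12.4% of the exonic bases of Tgfb3 also belong to exons of genes on the opposite strand. Its counts on the 2 strands sum to 1.22 times its count without strand, which therefore leaves out reads that the stranded counts assign to Tgfb3. The share of exonic bases in exons of other genes was 2.14% for Tgfb2, 4.54% for Tgfbr3 and 0% for the other members. Between oldest-old and young GFP, Tgfb3 had a log2 fold change of 0.16 (adjusted p = 0.188), and it passed without oldest-old GFP library 4 (0.22, adjusted p = 0.0412), over a range of 0.00469 to 0.556 in 18 alternatives. Tgfb1, the ligand best known from immune and fibrotic settings, ranged from 7.29 to 20.3 CPM, and was not called in any of the 7 comparisons (adjusted p of at least 0.603). Its highest value was in oldest-old AAV-Kl library 2. Tgfb2 ranged from 17.7 to 45.9 CPM and was spread widely within oldest-old GFP (31.8 ± 12.2 CPM) and oldest-old AAV-Kl (30.7 ± 10.1). The lowest values of these groups were in GFP library 4 (17.7 CPM) and AAV-Kl library 3 (21.8 CPM). These libraries were low in fibroblast and tendon genes. Nearly as low was AAV-Kl library 2 (22.8 CPM), whose fibroblast genes summed to 125 CPM and tendon genes to 155. GFP library 1 was also low (25.8 CPM), with sums of 134 and 193 CPM. The part of those cells was not tested.

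Among the receptors, Tgfbr2, the ligand-binding type II receptor (chr9:116084293-116175360, minus strand), had 37.1, 41.1, 36.9 and 31.2 CPM in young GFP and 55.7, 44.2, 50.7 and 59.4 in oldest-old GFP. All oldest-old GFP libraries lay above all young GFP libraries. Tgfbr2 was higher in oldest-old GFP (log2 fold change 0.52, SE 0.13, adjusted p = 0.00906, exact permutation p = 0.0286). Without young GFP libraries 1 and 3 it was 0.51 with an adjusted p of 0.0734, without oldest-old GFP libraries 1 and 4, which hold its 2 highest values in that group, it was 0.36 with an adjusted p of 0.174, and over 18 alternatives the adjusted p ran from 0.00156 to 0.476. Young Sham was at 47.6 ± 7.69 CPM, and against it the log2 fold change of oldest-old GFP was 0.14 (adjusted p = 0.476). The 5 endothelial genes summed to 229 ± 11.2 CPM in young GFP and 264 ± 16.4 in oldest-old GFP. Young Sham was at 263 ± 9.69 CPM. The lowest oldest-old GFP library (243.7 CPM) lay above the highest of young GFP (242.1 CPM). In young and oldest-old GFP, Pecam1 had 67.85 and 82.2 CPM, Cdh5 80.1 and 86.1, and Kdr 39.2 and 51.6. Emcn had 10.9 and 15.4, and Tie1, which was lower in oldest-old GFP, 31.1 and 29.2. The 5 macrophage genes Adgre1, Csf1r, Cd68, C1qa and Mrc1 summed to 32.2 ± 8.40 CPM in young GFP, 57.2 ± 16.3 in young Sham and 56.0 ± 9.81 in oldest-old GFP, whose lowest library (46.1 CPM) lay above the highest of young GFP (44.5 CPM). Of 5 smooth muscle and pericyte genes, Des, which muscle fibres also express, had a mean of 3249.9 CPM in young GFP and 4317 in oldest-old GFP. The other 4 did not move together: Myh11 had 32.5 and 29.2 CPM, Rgs5 256 and 252, Pdgfrb 29.9 and 34.1, and Notch3 20.6 and 22.98. The part of these cells in the Tgfbr2 values was not tested. Tgfbr1, the signalling type I receptor, ranged from 31.8 to 53.3 CPM and was called only in the comparison of oldest-old GFP with young Sham (0.39, SE 0.10, adjusted p = 0.0123). Tgfbr3, the co-receptor betaglycan, ranged from 17.6 to 33.5 CPM and was not called in any of the 7 comparisons, although oldest-old GFP and old GFP did not overlap (exact permutation p = 0.0286, adjusted p = 0.447). The share of all tested genes without overlap between those 2 groups was not counted either.

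Smad7, which blocks the type I receptor and is itself induced by the pathway, had 8.17, 6.75, 6.62 and 5.39 CPM in young GFP and 8.54, 8.03, 10.6 and 11.4 in oldest-old GFP. Oldest-old GFP library 2 lay just below young GFP library 1, and the other oldest-old GFP libraries lay above all of young GFP. Its call (log2 fold change 0.52, SE 0.17, adjusted p = 0.0404, exact permutation p = 0.0571) was close to the threshold, and it was lost without oldest-old GFP library 1 (adjusted p = 0.0517), 3 (0.101) or 4 (0.149), without young GFP library 2 (0.0796), 3 (0.0979) or 4 (0.144), without young GFP libraries 1 and 3 together (0.0806), and without oldest-old GFP libraries 1 and 4 together (0.224). It was also lost with DESeq2 size factors in edgeR (0.0501), without a filter (0.0765), without the young Sham libraries in the fit (0.0560), with only the compared groups fitted (0.0787), with a replicate block (0.0524) and against young Sham (log2 fold change 0.27, adjusted p = 0.281). It was kept in 4 of 18 alternatives (adjusted p from 0.0205 to 0.281). Ltbp1, which holds latent ligand in the matrix, had 10.9 ± 2.02 CPM in young GFP and 14.2 ± 2.09 in oldest-old GFP (log2 fold change 0.38, SE 0.14, adjusted p = 0.0665). Young Sham ranged from 11.3 to 16.6 CPM. Ltbp1 passed in 4 of 18 alternatives: without oldest-old GFP library 4 (adjusted p = 0.0483), without young GFP library 2 (0.0200), on the first strand counts (0.0464) and with a replicate block (0.0473). Its adjusted p ran from 0.0200 to 0.940 over all 18.

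Whether the Klotho vector changed the members was asked at each of the 2 older ages. In old AAV-Kl against old GFP, edgeR called 0 of 9 members, against 0% of all tested genes, and 0 at an unadjusted p below 0.05 against 2.15%, and DESeq2 also called 0. The member log2 fold changes ran from -0.20 to 0.18, and in 0 of 9 members did the groups not overlap, against 1.68% of tested genes. In oldest-old AAV-Kl against oldest-old GFP, edgeR again called 0, against 0.0112% of tested genes, with 1 at an unadjusted p below 0.05 against 8.08%, and DESeq2 called 0. That 1 was Smad3, with 112, 109, 120.2 and 117 CPM in oldest-old AAV-Kl beside the oldest-old GFP values given above. Oldest-old GFP library 3 (113 CPM) lay within the AAV-Kl range and the other 3 GFP libraries lay below it. The log2 fold change was 0.47 (SE 0.14, approximate 95% interval 0.18 to 0.75, adjusted p = 0.420, exact permutation p = 0.0857). In old AAV-Kl, Smad3 was at 112, 95.4, 109 and 123 CPM, with a log2 fold change of -0.20 against old GFP (interval -0.48 to 0.09). The difference between the 2 ages was 0.67 (SE 0.19, approximate 95% interval 0.26 to 1.07), which did not pass after adjustment over all genes. In that test of the difference edgeR called 0 members, against 0.00562% of tested genes, with 1 at an unadjusted p below 0.05 against 5.76%, and DESeq2 called 0.

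Between young GFP and young Sham 1 of 9 members was called (Smad3, above), against 0.472% of tested genes, and 5 at an unadjusted p below 0.05, against 13.4%. Of these 5, Tgfb3, Tgfbr1 and Smad3 were higher in young GFP. Tgfbr2 (log2 fold change -0.38, SE 0.13, edgeR adjusted p = 0.202) and Ltbp1 (-0.36, SE 0.14, adjusted p = 0.262) were lower in young GFP. In 4 of 9 members the 4 young GFP libraries lay above the 4 young Sham libraries (Tgfb2, Tgfb3, Tgfbr1 and Smad3), as they did in 4.57% of tested genes.

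**Figure D5:**
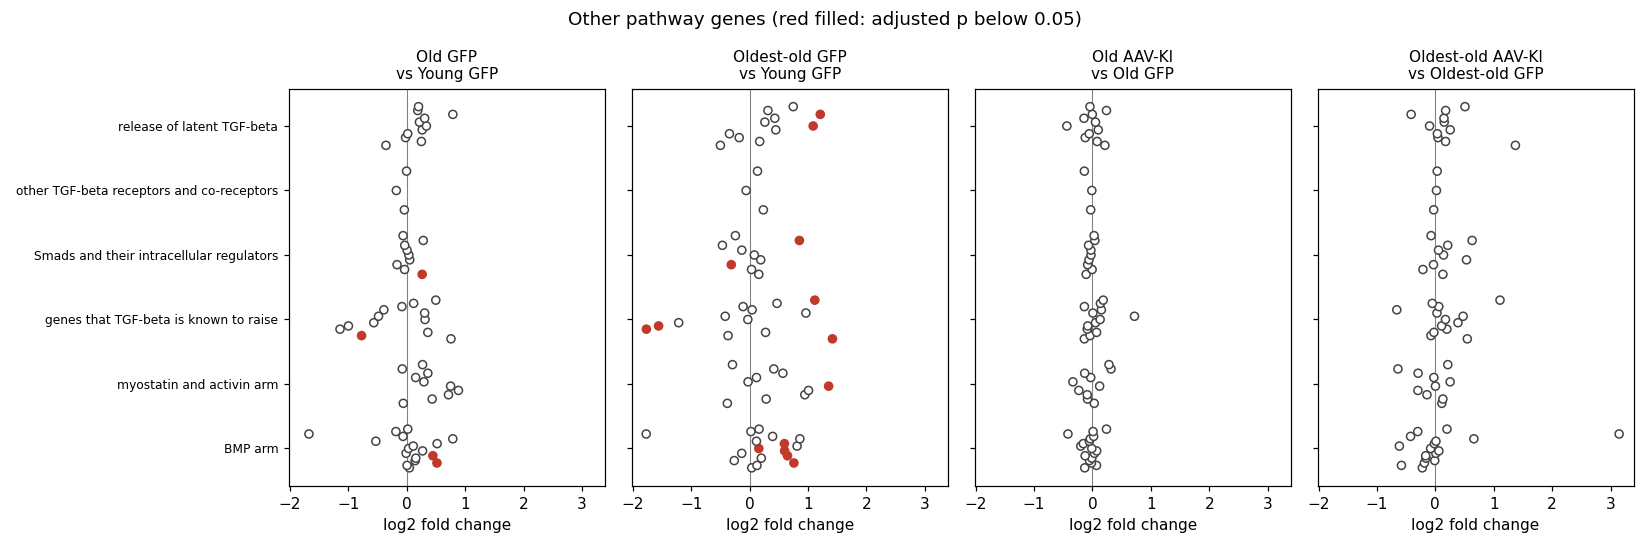
log2 fold change of 63 other pathway genes by list in 4 comparisons, the first-named group minus the second, on a common axis. Red filled points have an adjusted p below 0.05: 4 in old against young GFP, 14 in oldest-old against young GFP, and 0 in the comparisons of AAV-Kl with GFP.

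Of 63 other pathway genes in 6 lists, all tested, 3 were higher and 1 lower in old than in young GFP, against 4.7% of all tested genes called in either direction, with a median log2 fold change of 0.11 beside 0.00 over all tested genes. DESeq2 called 5 higher and 2 lower, while the 4.7% is that of edgeR alone. The growth factor Bmp6 (log2 fold change 0.52, SE 0.12, adjusted p = 0.0194), the receptor Bmpr1b (0.45, SE 0.11, adjusted p = 0.0202) and the transducer Smad2 (0.26, SE 0.08, adjusted p = 0.0493) were higher. Ccn2, a matricellular protein induced by TGF-beta, was lower (-0.77, SE 0.22, adjusted p = 0.0499). The Bmp6 call was lost without old GFP library 1 (adjusted p = 0.0906) or 2 (0.0750) or young GFP library 1 (0.0738) or 3 (0.0855), and that of Bmpr1b without old GFP library 2 (0.0793) or young GFP library 2 (0.0519), 3 (0.0635) or 4 (0.0687). Without old GFP libraries 1 and 4 together, Bmpr1b (0.0874), Smad2 (0.144) and Ccn2 (0.335) were not called, and without young GFP libraries 1 and 3 together none of the 4 was (Bmp6 0.307, Bmpr1b 0.116, Smad2 0.304, Ccn2 0.150). Leaving out any 1 of the 8 libraries lost the calls of Smad2 (adjusted p from 0.0596 to 0.139) and Ccn2 (from 0.0539 to 0.131). Both were also lost with a replicate block (Smad2 0.0704, Ccn2 0.0732) and without a filter (0.122 and 0.0633). Smad2 was lost with DESeq2 size factors in edgeR (0.0613) and without the young Sham libraries in the fit (0.0695), Ccn2 on the first strand counts (0.0803), and Bmp6 with only the compared groups fitted (0.0682). Smad2 was kept in 3 of 18 alternatives (0.0216 to 0.665) and Ccn2 in 4 of 18 (0.0123 to 0.570). Against young Sham, Bmpr1b alone of these 4 was called (0.74, adjusted p = 0.000448). DESeq2 also called 1 gene higher in the list of genes that store or release latent TGF-beta. In the lists with no call by edgeR, the genes with the highest mean count were Ltbp4 (-0.02), Eng (-0.04) and Mstn (-0.06).

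In oldest-old against young GFP 11 of the 63 were higher and 3 lower, against 14.9% of all tested genes called in either direction. The median log2 fold change was 0.16, beside 0.03 over all tested genes. DESeq2 called 10 higher and 5 lower, while the 14.9% is that of edgeR alone. The median of 0.16 and the 0.11 of old GFP are both measured from young GFP. In young GFP against young Sham the median of the 63 was -0.21, beside -0.03 over all tested genes. Their log2 fold changes were positive in 19 and negative in 44. At an unadjusted edgeR p below 0.05, 2 were higher and 12 lower, against 13.4% of all tested genes. After adjustment edgeR called 0, against 0.472%, and DESeq2 called 2 lower. Again in oldest-old against young GFP, 2 of 13 genes that TGF-beta is known to raise were higher and 2 lower, beside the same 14.9%. The cell cycle inhibitor Cdkn1a was higher (1.12, SE 0.36, adjusted p = 0.0404). The collagen genes Col1a1 (-1.77, SE 0.41, adjusted p = 0.00727) and Col1a2 (-1.56, SE 0.39, adjusted p = 0.0114) were lower, with mean levels of 59.2 against 201 CPM and 63.8 against 188 CPM. Oldest-old GFP library 4, low in fibroblast and tendon genes, had the lowest Col1a1 (17.3 CPM, against 66.3 to 78.2 in the other 3) and Col1a2 (22.2 against 70.7 to 86.3), and all 4 libraries lay below every young GFP library in both genes. The tendon genes summed to 226 ± 62.5 CPM in young GFP and 174 ± 52.2 in oldest-old GFP. In these groups Fmod had 142 and 91.3 CPM and Tnmd 5.24 and 3.09. Scx had 4.41 and 6.68, Thbs4 73.1 and 72.2, and Mkx 0.820 and 0.839. The fibroblast genes summed to 127 ± 23.7 and 123 ± 39.0 CPM. The part of tendon and fibroblast cells in the collagen values was not tested. In the BMP list 5 of 17 were higher, beside 14.9% of all tested genes called, among them Bmp6 (0.76, SE 0.12, adjusted p = 0.000514), Bmpr1b (0.65, SE 0.11, adjusted p = 0.000626), the transducer Smad1 (0.60, SE 0.14, adjusted p = 0.00826) and the inhibitor Smad6 (0.60, SE 0.15, adjusted p = 0.0119). Fst, which binds activins and myostatin, was higher (1.35, SE 0.29, adjusted p = 0.00368). So were Itgb8 (1.21, SE 0.24, adjusted p = 0.00235) and Thbs1 (1.09, SE 0.34, adjusted p = 0.0366), both known to release latent TGF-beta. Among intracellular regulators, the SMAD repressor Ski was lower (-0.31, SE 0.07, adjusted p = 0.00360) and the repressor Tgif1 was higher (0.85, SE 0.22, adjusted p = 0.0141). Eng, an endothelial co-receptor, was not called (0.24, adjusted p = 0.272).

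Some of these calls rested on few libraries. Smad6 was lost without young GFP library 1 (adjusted p = 0.0503) or 4 (0.0538), and Tgif1 without young GFP library 4 (0.0533). Thbs1 was lost without oldest-old GFP library 1 (0.0597), 2 (0.110) or 3 (0.0527) or any 1 young GFP library (0.0600 to 0.0983). Cdkn1a was lost without oldest-old GFP library 1 (0.0769) or 4 (0.129) or any 1 young GFP library (0.0672 to 0.103). Both were also lost without a filter (Thbs1 0.0527, Cdkn1a 0.0555), and Cdkn1a without the young Sham libraries in the fit (0.0584). Each was kept in 8 of 18 alternatives. Without young GFP libraries 1 and 3 together, Fst (0.0787), Col1a2 (0.0539), Smad6 (0.131), Thbs1 (0.169) and Cdkn1a (0.211) were not called. Against young Sham, Itgb8 (0.0548), Fst (0.0575), Smad1 (0.198) and Smad6 (0.974) were not called. Without oldest-old GFP libraries 1 and 4 together, Fst (0.0601), Col1a1 (0.0618), Smad1 (0.112), Col1a2 (0.117), Smad6 (0.0697), Tgif1 (0.0869), Thbs1 (0.0652) and Cdkn1a (0.321) were not called. Bmp6, Bmpr1b and Ski were called in all 18 alternatives.

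In the comparisons of AAV-Kl with GFP, edgeR and DESeq2 each called 0 of the 63 at either age. At an unadjusted p below 0.05 there were 0 in old mice by either tool, and 9 in oldest-old mice by either tool, of which edgeR had 4 higher and 5 lower, against 2.15% and 8.08% of all tested genes by edgeR. The median log2 fold change was -0.03 in old and 0.03 in oldest-old mice. By list, the genes with the highest mean count had log2 fold changes in old and oldest-old mice of -0.12 and 0.05 (Ltbp4), -0.03 and -0.03 (Eng), 0.03 and -0.07 (Zfyve9), -0.09 and 0.20 (Col1a1), 0.03 and 0.11 (Mstn) and 0.03 and 0.01 (Bmpr2), and none was called.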

How the data were processed

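Libraries were grouped by the labels. The authors aligned reads with STAR to GRCm38 and deposited counts per gene without normalization. The deposited counts without regard to strand were used, since the first strand held 49.8% to 50.4% of reads. Gene identifiers were matched to GENCODE M21. Between 74.7% and 77.0% of reads fell on genes. edgeR 4.0.16 (R 4.3.3) fitted 6 group means to all 24 libraries with TMM scaling, filterByExpr and the quasi-likelihood F test, with Benjamini-Hochberg adjustment over 17803 genes. Called means an adjusted p below 0.05. Standard errors are the log2 fold change divided by the square root of F, and intervals are approximate. Exact two-sided permutation tests used log2 CPM (prior count 2). The fit was tested on simulated data, and the outcome is not given here. Alternatives were DESeq2 1.42.0, other size factors, no filter, fewer libraries, first strand counts, a replicate block and leaving out libraries. No pair of libraries in a group was close enough to be a repeat deposit of 1 library. The members and lists were chosen with earlier results of these data known. Named from the lists were the called genes (at most 12) and otherwise a list's gene with the highest mean count, and for each member the 3 most correlated genes.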

Additional observations from a re-analysis of the deposited data

Results flagged for a closer look

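In 3 of 54 groups of 4 libraries (9 members in 6 groups), 1 library lay far from the other 3, where chance gives about 1 in 20. For Smad3 in young GFP, library 4 had 202 CPM and the next value was 181, a gap of 0.946 of the range of the group. For Tgfb1 in young Sham, library 1 had 7.30 CPM and the next was 13.2, a gap of 0.952 of the range. For Tgfb3 in old GFP, library 3 had 43.1 CPM and the next was 45.7, a gap of 0.909 of the range. The other 3 libraries were nearly equal in each of these groups. No member passed the test of the Klotho difference between ages: edgeR called 0, with 1 at an unadjusted p below 0.05, and DESeq2 called 0.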

How the results depend on the processing

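Of 1125 values of member log2 fold changes under alternatives, 986 kept their direction and their side of the threshold, 97 changed sign with neither value called, 30 lost a call, 11 gained one and 1 was reversed. The reversed value was Smad3 in old against young GFP with young Sham in place of young GFP (log2 fold change 0.059), an alternative chosen after seeing the data, and the cause was not tested. In old against young GFP the count of members called was 2 with only the compared groups, 0 without old GFP libraries 1 and 4, and 0 without young GFP libraries 1 and 3, against 1. At an unadjusted p it was 1 without young GFP libraries 1 and 3 and 2 against young Sham, against 4. In oldest-old against young GFP it was 1 without young GFP libraries 1 and 3 and 1 (Smad3) without oldest-old GFP libraries 1 and 4, also chosen after seeing the data, against 3, and at an unadjusted p 3 without young GFP libraries 1 and 3 and 3 against young Sham, against 5. In oldest-old against old GFP, DESeq2 called 1 against 0.

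Leaving out each library, members called ranged from 0 to 1 in old against young GFP, 2 to 4 in oldest-old against young GFP, 0 to 1 in oldest-old against old GFP (1, Smad3, without oldest-old GFP library 3), 0 to 1 in young GFP against young Sham, and 0 to 0 in old and oldest-old AAV-Kl against GFP and in the difference between ages. At an unadjusted p they ranged from 1 to 4, 3 to 6, 1 to 3 and 3 to 5 in the first 4 of these, 0 to 1 in old AAV-Kl, 1 to 2 in oldest-old AAV-Kl and 1 to 2 in the difference.

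The replicate numbers do not pair the libraries: correlations of same-numbered libraries after removing group means ran from -0.533 to 0.201. With the number as a replicate block, members called between young GFP and young Sham were 0 against 1, as they also were without young GFP libraries 1 and 3, and 2 against 1 at an unadjusted p in oldest-old AAV-Kl against GFP. The block called 3 in oldest-old against young GFP, where Smad7 was lost (adjusted p = 0.0524) and Ltbp1 was called (adjusted p = 0.0473).

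Over all tested genes, 837 were called in old against young GFP, with 553 without a filter, 1275 with only the compared groups, 551 on the first strand, 268 without old GFP libraries 1 and 4, 143 without young GFP libraries 1 and 3, and 366 to 679 leaving out 1 library. In oldest-old against young GFP 2649 were called, with 1755, 1249, 874 and 857 without a filter, with only the compared groups, without young GFP libraries 1 and 3 and without oldest-old GFP libraries 1 and 4, and 1674 to 2755 leaving out 1. DESeq2 called 120 in oldest-old against old GFP against 1, 25 in oldest-old AAV-Kl against GFP against 2, and 290 between young GFP and young Sham against 84, where only the compared groups gave 174, dropping young GFP libraries 1 and 3 gave 27 and leaving out 1 library 1 to 114. Kl was not tested on the first strand counts. With at most 33 reads per library, Kl values are imprecise.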
